A study of Homo sapiens with 6 samples.

Results

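The genes described here build and move the cytoskeleton: actins and the proteins that turn actin over, the Arp2/3 complex, tropomyosins, alpha-actinins, filamins, myosins, tubulins and vimentin. They were chosen by a rule on gene symbols that used none of their values, though it was set with earlier results of these data known. They numbered 83 of the 17721 gene identifiers found in either of 2 deposited tables. The second table listed 82 of them and the first 75, with 74 in both, and 3 of the 83 are pseudogenes by name. All samples are described by the submitters as U2OS, a long-used line of human bone cancer cells, and the identity of the cells was not tested here. The labels name 2 immunoprecipitates from shDNMT1 cells, in which the DNA methyltransferase DNMT1 is knocked down, 2 immunoprecipitates from shNC control cells, 1 shDNMT1 input and 1 shNC input. The immunoprecipitates hold RNA that came down with a mutant of the RNA methyltransferase NSun2, and per the treatment protocol a plasmid for that mutant was transfected into knockdown and control cells alike, while the inputs are labelled as having no treatment. The values are FPKM, in which fragments are divided by gene length and by library total, so that values may be compared between genes. In an immunoprecipitate a value also depends on how much of an RNA came down, so it need not be the level in the cell. No column says which sample, treatment or fraction it holds. The tables are therefore called the second and the first, and neither stands for knockdown or control cells. A gene has a single value in a table, without replicates, errors or tests, so every difference given is between these tables only. In bulk RNA, fewer cells of a type and less RNA per cell cannot be told apart.

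Actin filaments grow from monomers that profilin delivers, branch at the Arp2/3 complex, and are severed by cofilin. Tropomyosins coat them, alpha-actinins and filamins link them, and myosins pull on them. Microtubules are polymers of alpha- and beta-tubulin seeded by gamma-tubulin, and vimentin forms the intermediate filaments typical of mesenchymal cells. Many actin cytoskeleton genes carry a CArG box, the site recognised by serum response factor (SRF), whose coactivators sense the pool of free actin.

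Promoter sequence was looked at because it is a feature that the choice by symbol did not use. RefSeq promoter windows (GRCh38.p14, 250 bases before to 50 after a start site) were matched by symbol for 70 of the 83 genes, and the CArG motif was searched on both strands. It was found in windows of 8 of the 70 genes, or 11.4%, against 1.60% of the 27305 genes with a window, and in 7.84% of the 102 windows of these genes against 1.29% of all 35116 windows and 1.05% of the 12264 windows of genes in both tables at a mean of at least 1 FPKM. A match is a run of letters in a window and not a bound site. The 8 stretches are shown because they belong to genes of quite different level in the tables, among them the cytoplasmic actin ACTG1, filamin A, the heart myosin light chain MYL7 and the intestinal myosin MYO1A. Each runs 5′ to 3′ on the gene's own strand, ends before the start site, and has the CArG box in capitals.
ACTG1 (chr17:81512859-81512918, minus strand): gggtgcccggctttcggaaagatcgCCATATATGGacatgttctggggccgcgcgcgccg
FLNA (chrX:154374694-154374753, minus strand): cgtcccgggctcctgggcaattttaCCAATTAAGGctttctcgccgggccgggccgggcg
TPM4 (chr19:16067340-16067399, plus strand): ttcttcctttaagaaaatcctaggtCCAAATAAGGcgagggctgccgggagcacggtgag
ACTN1 (chr14:68977703-68977762, minus strand): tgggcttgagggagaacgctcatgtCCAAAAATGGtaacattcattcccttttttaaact
MYO1E (chr15:59372872-59372927, minus strand): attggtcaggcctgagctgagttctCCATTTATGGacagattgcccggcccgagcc
MYO1A (chr12:57050286-57050345, minus strand): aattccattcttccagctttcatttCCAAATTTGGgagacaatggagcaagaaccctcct
MYL7 (chr7:44141359-44141418, minus strand): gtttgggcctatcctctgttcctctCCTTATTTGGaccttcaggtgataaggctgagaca
TUBG2 (chr17:42659065-42659124, plus strand): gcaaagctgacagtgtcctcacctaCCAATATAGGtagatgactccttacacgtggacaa

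The box began 94 bases before the start site in both ACTG1 and FLNA, 31 in MYO1E, 61 in MYL7, and between 171 and 194 in ACTN1, TPM4, MYO1A and TUBG2. The genes that carried one did not share a direction between the tables. Of all genes at a mean of at least 1 FPKM, 57.5% were higher in the second table, so the split is not read as a trait of these genes. ACTG1, TPM4, ACTN1 and MYO1E were higher in the second table, FLNA, MYO1A and TUBG2 were lower, and MYL7 was listed in the second table only. SRF itself was listed at 22.3 FPKM in the second table and 18.8 FPKM in the first. Its coactivator MKL1 was at 18.4 FPKM in the second table and 15.4 FPKM in the first, and the related MKL2 at 4.99 FPKM in the second and 1.80 FPKM in the first.

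The second table listed 16824 identifiers and the first 15167. The absolute depth of either is unknown. Among 2354 genes under 1 FPKM in both, where few fragments set the steps between values, the log2 ratio without a pseudocount had a peak at -1.11 with 247 genes within 0.1 and one at -0.05 with 230. Read as 1 fragment against 1, the peak at -1.11 would put the depth of the second table at 2.16 times that of the first. The peak at -0.05 would put it at 1.04 times. Peaks were sought only below -0.5 and within 0.5 of 0, and which reading holds was not tested. DNMT1, the target of the knockdown, was at 9.36 FPKM in the second table and 23.3 FPKM in the first, and NSUN2 was at 1147 FPKM in the second table and 558.7 FPKM in the first. Of 9 osteoblast markers, 5 were listed in the second table and 2 in the first. RUNX2 was at 0.81 FPKM in the second table and not listed in the first. BGLAP, at 0.14 FPKM, and SPARC, at 0.033 FPKM, were also listed in the second table only. The collagen gene COL1A1 was at 0.45 FPKM in the second table and 3.04 FPKM in the first, a log2 ratio of -1.48. The alkaline phosphatase gene ALPL, the most abundant of the listed markers, was at 38.0 FPKM in the second table and 78.4 FPKM in the first.

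**Figure D1:**
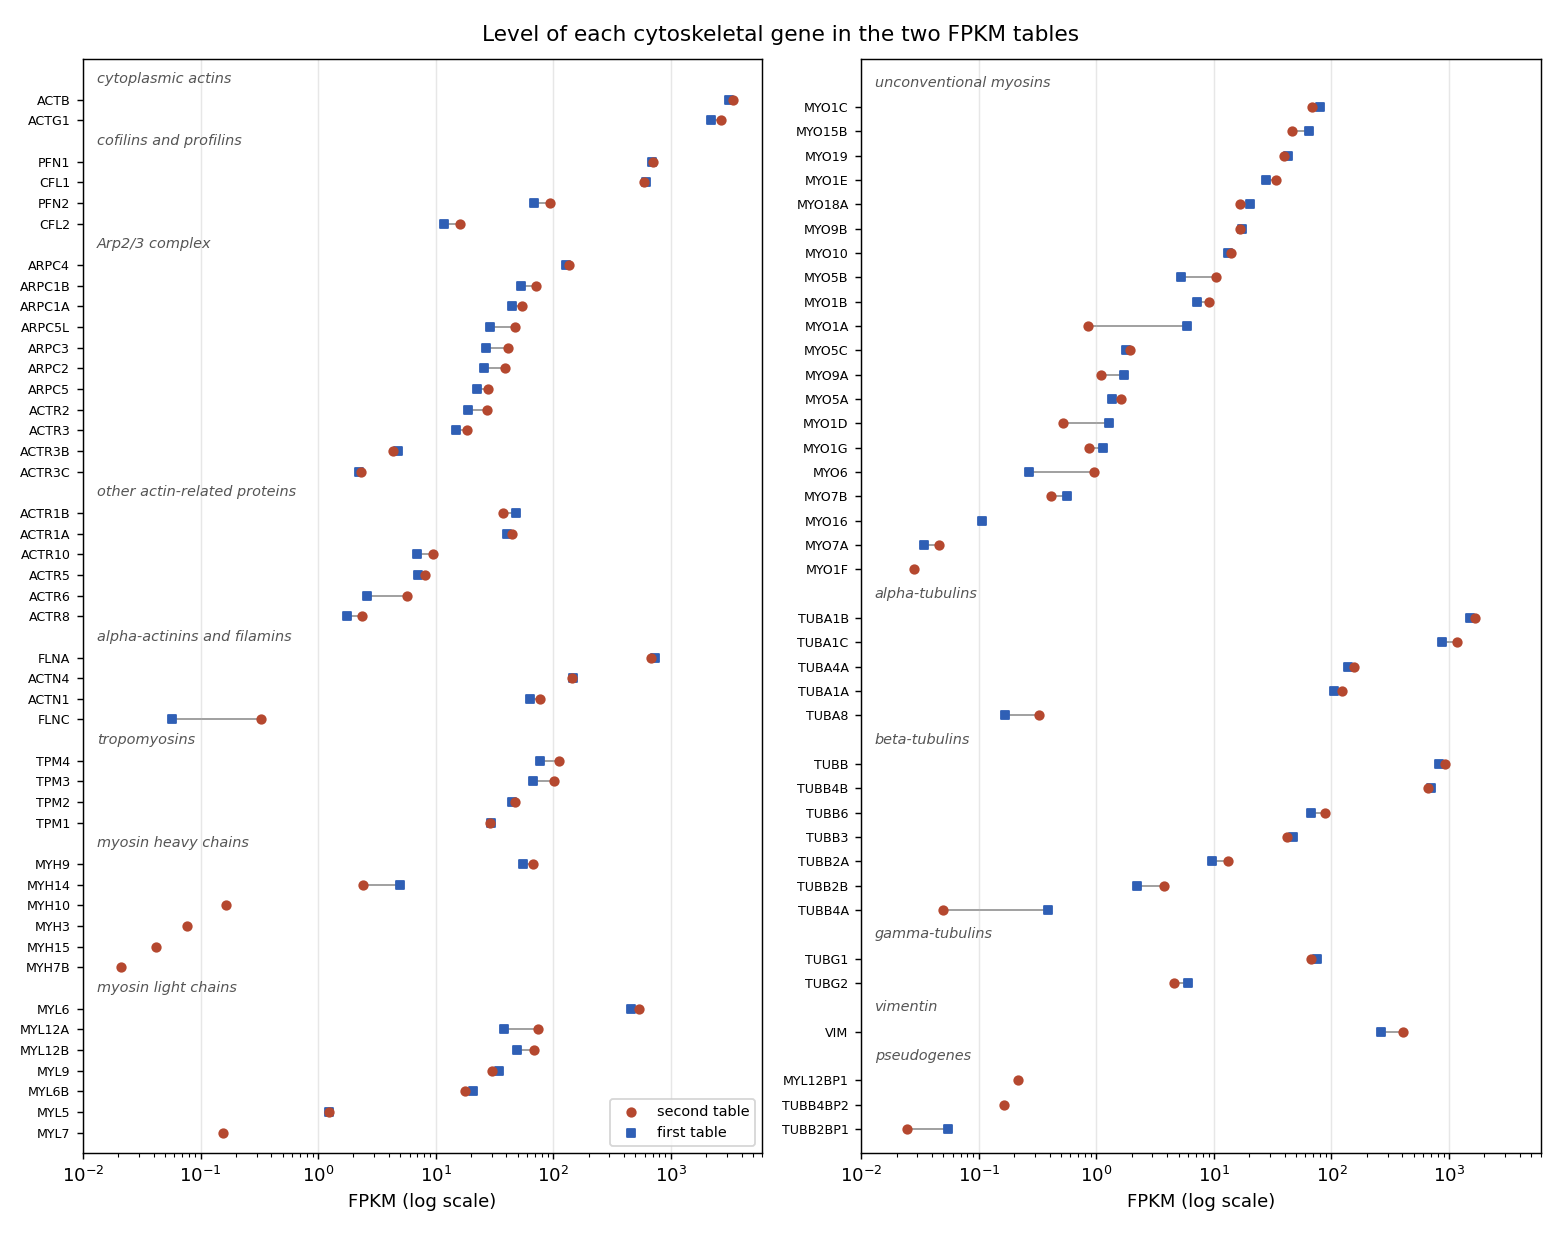
FPKM of the cytoskeletal genes, all but 1 of the 83, on a log axis, with circles for the second table, squares for the first and a line joining the values of 1 gene. The actins, TUBA1B and TUBA1C lie farthest right, and the genes listed in 1 table only (a lone mark) all lie below 1 FPKM.

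The members together made up 2.91% of the summed FPKM in the second table and 2.43% in the first. Within that sum the composition was alike: the cytoplasmic actins took 38.5% in the second table and 38.1% in the first, and the alpha- and beta-tubulins 30.8% in the second and 30.3% in the first. Beta-actin (ACTB) ranked 9 among all genes in both tables. The 9 genes listed in 1 table only were MYH3, MYH7B, MYH10, MYH15, MYL7, MYO1F and the pseudogenes TUBB4BP2 and MYL12BP1 in the second, and MYO16 in the first. None exceeded 0.22 FPKM, a level at which being listed may depend on depth, so no difference is read from them. The other 8 genes below the level filter used next were FLNC, MYO1D, MYO6, MYO7A, MYO7B, TUBA8, TUBB4A and the pseudogene TUBB2BP1. None of these 8 exceeded 0.95 FPKM in the second table or 1.29 FPKM in the first.

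Differences are given as log2((second + 1)/(first + 1)), a scale that understates the change of low genes, and a difference of at least 2-fold on it is called large. Of the 74 genes in both tables, 66 had a mean of at least 1 FPKM. Of these 66, 0 were large in the direction of the second table and 1 in that of the first, against 2.4% and 1.82% of all 11416 genes at that level. These shares are near the background, and they are not a result about the cytoskeletal genes. The median log2 ratio of the 66 was 0.16 (middle 50% from -0.07 to 0.41), against 0.09 over all genes, and 44 of them, or 66.7%, were higher in the second table, against 57.5% of all genes. With every ratio centred, that is, less the median of 0.05 over the 14270 genes found in both tables, 42 of 66 were higher, against 52.9% of all genes. Centring left 0 and 1 large differences, against 1.91% and 2.12% of all genes. With no filter, 48 of 74 were higher and 0 and 1 were large, against 54.8%, 2.04% and 1.68% of all genes. Of the 66, 57, or 86.4%, lay within 1.5-fold between the tables, against 78.4% of all genes. The members are abundant, and with the level filter raised to 10 FPKM the shares were closer, 89.8% of 49 members against 85.4% of all 4941 genes. Among the 26 genes that share their locus with no other identifier, the median was 0.10, against 0.11 over all such genes, so the members' higher median was not seen there.

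**Figure D2:**
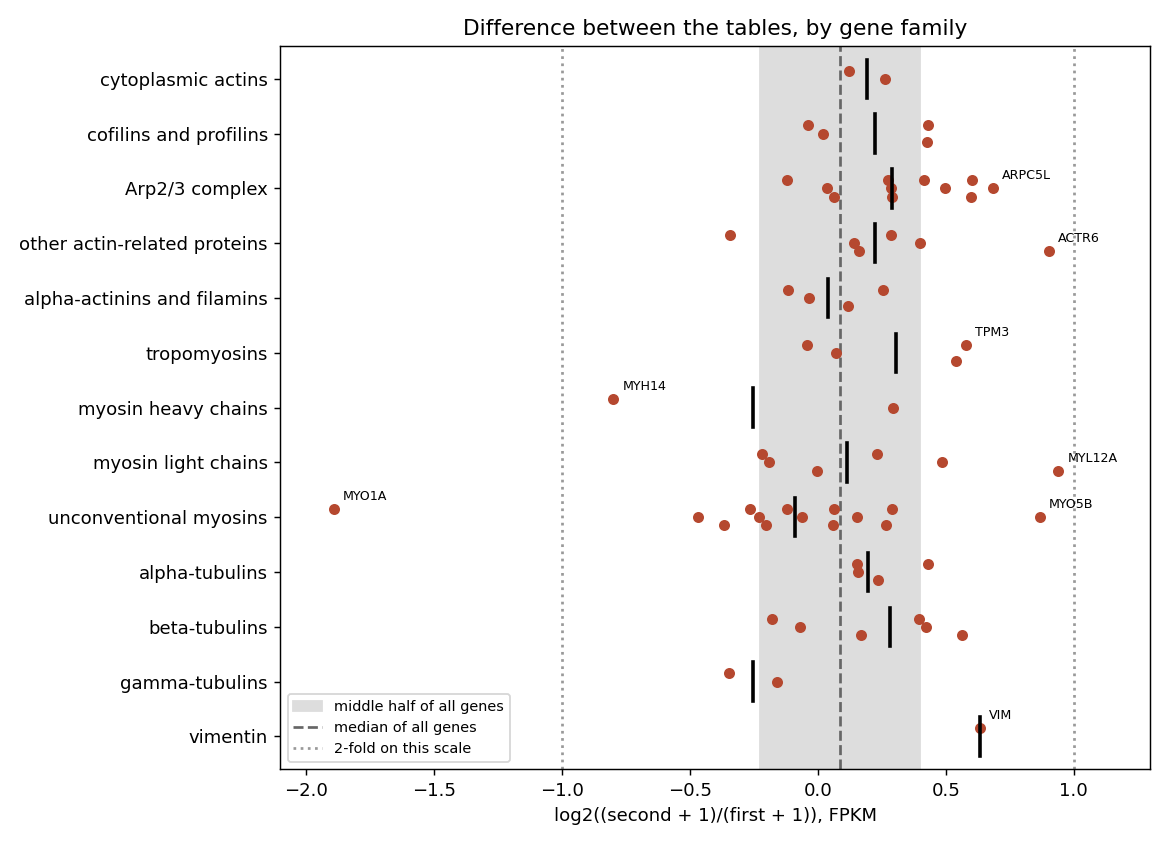
Log2 ratio of second over first table, with a pseudocount of 1 FPKM, for the 66 genes with a mean of at least 1 FPKM, by family. Points are genes, black bars family medians, the grey band the middle 50% of all genes from -0.23 to 0.40, the dashed line their median of 0.09 and the dotted lines 2-fold. MYO1A is the point beyond the dotted lines.

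The cytoplasmic actins were the most abundant members. ACTB (chromosome 7, 5527151 to 5563784; ENSG00000075624) was at 3409.6 FPKM in the second table and 3131 FPKM in the first, a log2 ratio of 0.12. Gamma-actin (ACTG1; chromosome 17, 81509971 to 81527776; ENSG00000184009) was at 2660.7 FPKM in the second table and 2217 FPKM in the first, a log2 ratio of 0.26. The 2 proteins are nearly identical, and fragments from related sequence could be divided between them upstream. Beta-actin outnumbered gamma-actin in both tables, by 1.28 times in the second and 1.41 times in the first. These coordinates and those that follow are hg38 loci as the tables give them, counted from 1.

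The proteins that turn actin over had abundant and scarce forms, and it was the scarce form that was higher in the second table. Profilin 1 (PFN1), which feeds monomers to growing filament ends, was at 703.5 FPKM in the second table and 694.1 FPKM in the first. Cofilin 1 (CFL1), which severs ageing filaments, was at 597.9 FPKM in the second table and 613.4 FPKM in the first. Both thus lay near equality, with log2 ratios of 0.02 and -0.04, and the ratio of PFN1 changed sign on centring. PFN2, the form known from neurons, was at 93.2 FPKM in the second table and 69.1 FPKM in the first. CFL2, the form known from muscle, was at 16.2 FPKM in the second table and 11.7 FPKM in the first. Both scarce forms had a log2 ratio of 0.43, and PFN2 made up 11.7% of the profilin FPKM in the second table and 9.05% in the first. PFN2 shares its locus with RNF13, which was at 29.2 FPKM in the second table and 58.8 FPKM in the first, and the division of fragments between them was not tested.

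The Arp2/3 complex, which starts new filaments as branches on old ones, is taken with its alternative subunits. Of its 11 genes 10 were higher in the second table, or 9 after centring, where the ratio of ACTR3C turned negative. Of all genes 57.5% were higher, or 52.9% after centring. The family median was 0.29. The 9 genes of the standard complex, with ratios from 0.06 to 0.68, were all higher in the second table before and after centring, although ARPC4 was so by 0.01 after it. ARPC5L, an alternative form of the smallest subunit, was at 47.5 FPKM in the second table and 29.2 FPKM in the first. The subunit ARPC3 was at 41.3 FPKM in the second table and 26.9 FPKM in the first. ARPC2, part of the core that contacts the mother filament, was at 39.1 FPKM in the second table and 25.5 FPKM in the first. These 3 had the highest ratios of the family, at 0.68, 0.60 and 0.60, and ARPC4, the most abundant, the lowest of the standard complex, at 135.4 FPKM in the second table and 129.5 FPKM in the first. ARPC4 shares its locus with 6 identifiers, among them the readthrough gene ARPC4-TTLL3, and ARPC1A and ARPC1B share one with each other. ARPC3 shares one with ANAPC7, at 16.8 FPKM in the second table and 11.3 FPKM in the first. The actin-related proteins that template the branch were ACTR2, at 27.1 FPKM in the second table and 18.9 FPKM in the first, and ACTR3, at 18.4 FPKM in the second table and 14.8 FPKM in the first. ACTR3B, an alternative form of ACTR3, was the member that was lower, at 4.31 FPKM in the second table and 4.78 FPKM in the first.

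The complex holds its 7 subunits in equal number, but their FPKM values were unequal. Whether these values are levels in the cell or recovery in an immunoprecipitate is not known. Summed over alternative forms, the most abundant subunit exceeded the least abundant by 5.42 times in the second table and 6.84 times in the first. ARPC4 was the highest, at 135.4 FPKM in the second table and 129.5 FPKM in the first, and was followed by ARPC1, at 125.1 FPKM in the second and 97.5 FPKM in the first. At the low end ARP3 was at 24.99 FPKM in the second table and 21.8 FPKM in the first, and ARP2 at 27.1 FPKM in the second and 18.9 FPKM in the first, so these last 2 changed places. That change rests on adding ACTR3B and ACTR3C to ACTR3. ACTR3 alone, at 18.4 FPKM in the second table and 14.8 FPKM in the first, was below ARP2 in both. ACTR3C shares its locus with LRRC61, at 23.4 FPKM in the second table and 34.7 FPKM in the first, and the division of fragments was not tested. The alternative form ARPC5L made up 63.1% of ARPC5 and ARPC5L together in the second table and 56.4% in the first. ARPC1B, the form alternative to ARPC1A, made up 56.9% of that pair in the second table and 54.5% in the first.

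The other actin-related proteins serve dynein and chromatin rather than branching. ACTR1A and ACTR1B form the short filament of dynactin, the adaptor of the motor dynein. ACTR1A was at 45.0 FPKM in the second table and 40.7 FPKM in the first, and ACTR1B at 37.7 FPKM in the second table and 48.0 FPKM in the first. ACTR1A was therefore the larger of the pair in the second table, with 54.4% of their sum, and the smaller in the first, with 45.9%. ACTR10, which caps the pointed end of that filament, was at 9.55 FPKM in the second table and 6.99 FPKM in the first. It shares its locus with PSMA3, at 20.9 FPKM in the second table and 16.7 FPKM in the first, and the division of fragments was not tested. ACTR5, ACTR6 and ACTR8 are subunits of chromatin remodelling complexes. ACTR6 had one of the highest ratios of all members, 0.90, with 5.72 FPKM in the second table and 2.59 FPKM in the first. With a pseudocount of 0.1 FPKM its log2 ratio was 1.11, past 2-fold. ACTR5 was at 8.07 FPKM in the second table and 7.11 FPKM in the first, and ACTR8 at 2.35 FPKM in the second and 1.75 FPKM in the first.

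Among the proteins that link filaments into networks, filamin A and ACTN4 were slightly lower in the second table and ACTN1 slightly higher. Filamin A (FLNA; chromosome X, 154348524 to 154374638; ENSG00000196924) was at 684.3 FPKM in the second table and 741.9 FPKM in the first. ACTN4, a non-muscle alpha-actinin, was at 143.3 FPKM in the second table and 146.9 FPKM in the first, and ACTN1 at 76.5 FPKM in the second and 63.9 FPKM in the first. Their log2 ratios were -0.12 for FLNA, -0.04 for ACTN4 and 0.26 for ACTN1, with the same signs on centring. Filamin C (FLNC), the muscle form, had 0.33 FPKM in the second table and 0.057 FPKM in the first.

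The tropomyosins split into a pair that differed and a pair that did not. TPM4, a short non-muscle tropomyosin, was at 111.6 FPKM in the second table and 76.6 FPKM in the first, a log2 ratio of 0.54. TPM3 was at 101.3 FPKM in the second table and 67.5 FPKM in the first, a log2 ratio of 0.58. TPM2 was at 47.4 FPKM in the second table and 45.0 FPKM in the first, and TPM1 at 28.9 FPKM in the second and 29.8 FPKM in the first. TPM3 and TPM4 together were thus the larger and the more different pair, and TPM1 and TPM2, whose long isoforms are known from muscle and stress fibres, were nearly level. The order TPM4, TPM3, TPM2, TPM1 was the same in both tables. The tables give 1 value per gene, and the isoforms of each tropomyosin are not separated.

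Non-muscle myosin II pulls on actin as a pair of heavy chains, each with an essential and a regulatory light chain. MYH9, the heavy chain of myosin IIA, was at 67.7 FPKM in the second table and 55.0 FPKM in the first. MYH14, that of myosin IIC, was at 2.43 FPKM in the second table and 4.97 FPKM in the first, a log2 ratio of -0.80, which became -1.002 with a pseudocount of 0.1 FPKM. MYH10, that of myosin IIB, was at 0.16 FPKM in the second table and not listed in the first. MYH9 therefore made up 96.3% of the FPKM of the 3 heavy chains in the second table and 91.7% in the first. The muscle chains MYH3, MYH7B and MYH15, in the second table only, did not exceed 0.077 FPKM. Of 12 markers of skeletal and heart muscle, 4 were listed in the second table and 3 in the first, and none exceeded 0.42 FPKM in the second or 0.96 FPKM in the first.

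The essential light chain had a far higher FPKM than the heavy chain, and the regulatory chains differed among themselves. MYL6, the essential light chain of non-muscle myosin, was at 539.1 FPKM in the second table and 459.2 FPKM in the first, which was 7.96 times MYH9 in the second table and 8.34 times in the first. MYL12A, a regulatory light chain, had the highest ratio of all 66 genes, 0.94, with 74.8 FPKM in the second table and 38.5 FPKM in the first. Its neighbour and close paralog MYL12B, whose locus (chromosome 18, 3261909 to 3278284) follows that of MYL12A (3247481 to 3261850), was at 69.2 FPKM in the second table and 49.2 FPKM in the first. MYL9, the regulatory chain best known from smooth muscle, was at 30.4 FPKM in the second table and 34.8 FPKM in the first. It shares its locus with DLGAP4, at 34.2 FPKM in the second table and 36.4 FPKM in the first. The division of fragments between MYL9 and DLGAP4 was not tested. The 3 regulatory chains thus differed in make-up: MYL12A gave 42.9% of their sum in the second table and 31.4% in the first, and MYL9 gave 17.4% in the second and 28.4% in the first. The proteins of MYL12A and MYL12B are nearly identical, so fragments could be divided between them upstream, and their sum is the safer quantity. MYL6B was at 17.9 FPKM in the second table and 21.0 FPKM in the first, and MYL5 at 1.23 FPKM in the second and 1.24 FPKM in the first.

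**Figure D3:**
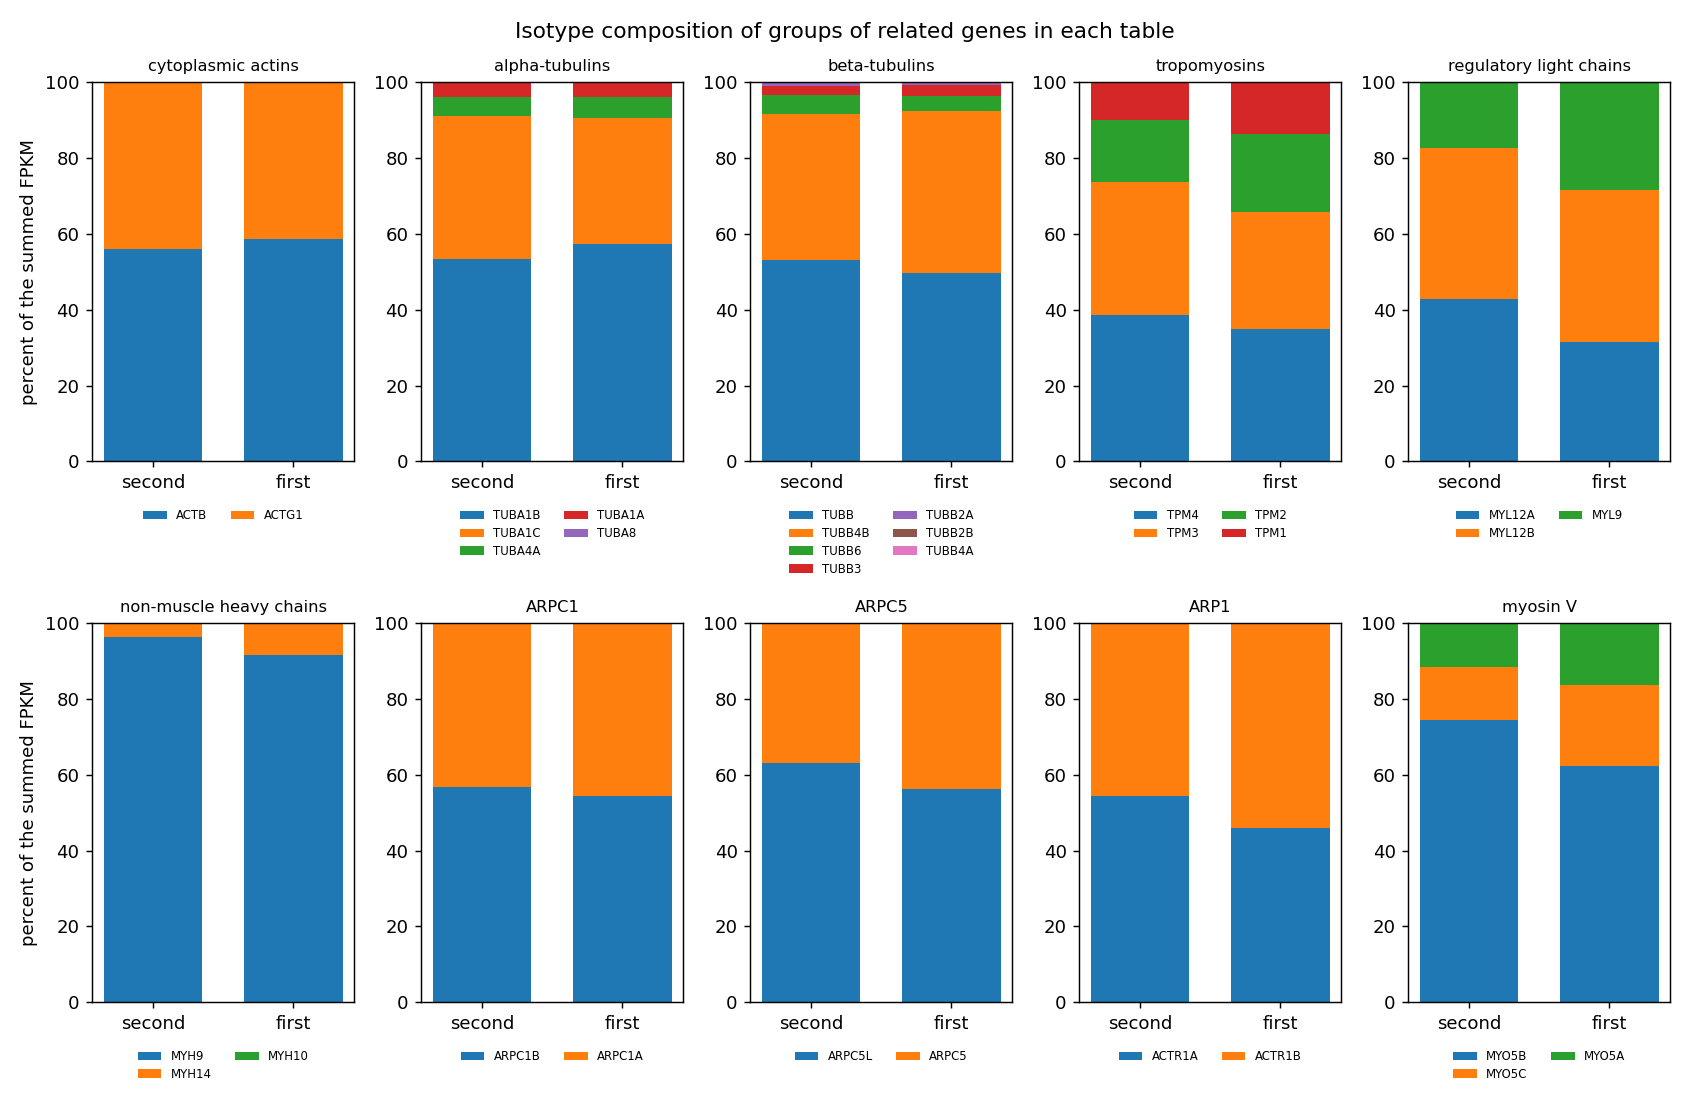
Share of each gene in the summed FPKM of 10 groups of related genes, as stacked bars from 0 to 100%, with the second table left of the first in each panel. MYL12A takes 42.9% of the regulatory light chains in the second table and 31.4% in the first, and the order of ACTR1A and ACTR1B differs between the tables.

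The unconventional myosins, single motors that carry cargo or tether membranes, were the largest family with 20 genes, of which 14 were in both tables at a mean of at least 1 FPKM. Of these 14, 6 were higher and 8 lower in the second table, near an even split, with a median of -0.09, beside 57.5% of all genes higher and a median of 0.09. MYO1C, which tethers membranes to cortical actin, was the highest, at 68.0 FPKM in the second table and 79.9 FPKM in the first. MYO15B was at 46.5 FPKM in the second table and 64.7 FPKM in the first, MYO19, a motor of mitochondria, at 39.2 FPKM in the second and 42.7 FPKM in the first, and MYO1E, a motor of endocytic sites, at 33.5 FPKM in the second and 27.7 FPKM in the first. MYO1E shares its locus with CCNB2, at 29.3 FPKM in the second table and 14.5 FPKM in the first, and the division of fragments was not tested. MYO10, the motor of filopodia, was at 13.9 FPKM in the second table and 13.3 FPKM in the first.

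MYO1A (chromosome 12, 57010000 to 57051198; ENSG00000166866), the myosin of intestinal brush border microvilli, was the member with a large difference. It was at 0.85 FPKM in the second table and 5.86 FPKM in the first, a log2 ratio of -1.89, or 6.90-fold without the pseudocount. Its locus is shared with TAC3, a neuropeptide gene, at 2.58 FPKM in the second table and not listed in the first, so how fragments were divided between these genes enters the value and was not tested. Of 3 epithelial markers 2 were listed in each table, CDH1 and EPCAM, with a summed level of 0.95 FPKM in the second table and 10.6 FPKM in the first. CDH1 was at 0.39 FPKM in the second table and 8.42 FPKM in the first, and EPCAM at 0.55 FPKM in the second and 2.20 FPKM in the first. The simple-epithelial keratins KRT8 and KRT18, outside this marker list, were abundant in both tables and nearer equality, with log2 ratios of -0.18 and -0.11. The part of these genes in the result was not tested. MYO5B, which moves recycling endosomes, stood at the other end, at 10.4 FPKM in the second table and 5.25 FPKM in the first, a log2 ratio of 0.87. It gave 74.5% of the FPKM of the class V myosins in the second table and 62.4% in the first, and MYO5A and MYO5C had log2 ratios of 0.15 and 0.06. MYO5B shares its locus with ACAA2 and the noncoding SNHG22, which were close to equal between the tables. ACAA2 was at 25.6 FPKM in the second table and 24.7 FPKM in the first, and SNHG22 at 22.8 FPKM in the second and 21.7 FPKM in the first. MYO6, the motor that walks to the minus end, was at 0.95 FPKM in the second table and 0.27 FPKM in the first, below the level filter.

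Both subunits of the tubulin dimer were dominated by a few isotypes. TUBA1B (chromosome 12, 49127782 to 49147869; ENSG00000123416) was at 1667 FPKM in the second table and 1498 FPKM in the first. TUBA1C was at 1174 FPKM in the second table and 870.1 FPKM in the first, a log2 ratio of 0.43. TUBA4A was at 154.4 FPKM in the second table and 138.2 FPKM in the first, and TUBA1A, the main neuronal alpha-tubulin, at 122.8 FPKM in the second and 104.1 FPKM in the first. All 4 were higher in the second table, before and after centring, beside 57.5% and 52.9% of all genes. TUBA1A and TUBA1C share a locus and near-identical coding sequence. TUBA1C gave 37.6% of the alpha-tubulin FPKM in the second table and 33.3% in the first.

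Of the beta-tubulins, TUBB was at 921.3 FPKM in the second table and 818.7 FPKM in the first, and TUBB4B at 665.2 FPKM in the second and 698.8 FPKM in the first. TUBB6 was at 88.2 FPKM in the second table and 66.8 FPKM in the first. TUBB3, the class III isotype used as a marker of neurons, was at 41.7 FPKM in the second table and 47.4 FPKM in the first. Its locus is shared with TCF25, at 40.4 FPKM in the second table and 41.65 FPKM in the first, and the division of fragments was not tested. The isotypes thus split, with TUBB, TUBB6, TUBB2A and TUBB2B higher in the second table and TUBB4B and TUBB3 lower. Of 3 other neuronal markers, 2 were listed in the second table and 1 in the first, at no more than 0.47 FPKM. The brain isotype TUBB4A was at 0.049 FPKM in the second table and 0.39 FPKM in the first. The alpha-tubulin FPKM exceeded the beta-tubulin FPKM by 1.80 times in the second table and 1.59 times in the first, although the proteins pair in equal number. Whether this holds for RNA in the cell was not tested. Both gamma-tubulin genes were lower in the second table, with TUBG1 at 67.0 FPKM in the second table and 74.9 FPKM in the first, and TUBG2 at 4.53 FPKM in the second and 6.03 FPKM in the first. These genes lie close together on chromosome 17.

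Vimentin (VIM; chromosome 10, 17214239 to 17237593; ENSG00000026025) was at 406.8 FPKM in the second table and 261.8 FPKM in the first, a log2 ratio of 0.63. The keratins that fill the same role in simple epithelia were several times as abundant: KRT8 was at 1410.1 FPKM in the second table and 1597 FPKM in the first, and KRT18 at 1196 FPKM in the second and 1293 FPKM in the first. Vimentin was thus higher in the second table and this keratin pair slightly lower. The keratin log2 ratios were -0.18 for KRT8 and -0.11 for KRT18. Both lay between the lower and upper quartiles of all genes, -0.23 and 0.40, while that of vimentin lay above the upper one. KRT8 and KRT18 share a locus with each other, so they are not separate observations. The division of fragments between them was not tested. The nuclear lamina gene LMNA was at 370.6 FPKM in the second table and 377.8 FPKM in the first. In all, 10 other intermediate filament and linker genes passed the level filter, with 4 higher, 6 lower and a median of -0.02. Of all genes 57.5% were higher, with a median of 0.09.

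The ratio was also set beside the number of listed genes around a member. Across the 66 members the Spearman correlation of the log2 ratio with the count of identifiers whose loci began within 1 Mb was -0.42, and across all 11416 genes it was -0.30. This is a description across genes, which share these 2 tables and in part their neighbourhoods. In the sparsest class, with up to 10 neighbours, 3 of 4 members were higher in the second table, against 71.1% of all genes there, with a median of 0.17 against 0.26. With 10 to 17 neighbours, 15 of 17 members were higher, against 68.3% of all genes, with a median of 0.29 against 0.22. With 17 to 28 neighbours, 8 of 11 members were higher, against 60.5% of all genes, with a median of 0.42 against 0.12. With 28 to 46 neighbours, 11 of 16 members were higher, against 51.3% of all genes, with a median of 0.07 against 0.01. In the densest class, with 46 to 122 neighbours, 7 of 18 members were higher, against 36.1% of all genes, with a median of -0.07 against -0.13. The medians of all genes thus ran downward from class to class, while those of the members were highest in the middle class. The 5 members with the highest ratios, MYL12A, ACTR6, MYO5B, ARPC5L and VIM, had between 9 and 18 listed neighbours. Of the 5 with the lowest, MYO1A had 67, MYH14 51, MYO15B 70, MYO9A 17 and TUBG2 69. Single genes departed from the trend: TPM3, with a ratio of 0.58, had 55 neighbours and ACTG1, with 0.26, had 72. The part of gene density in the members' differences was not tested.

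**Figure D4:**
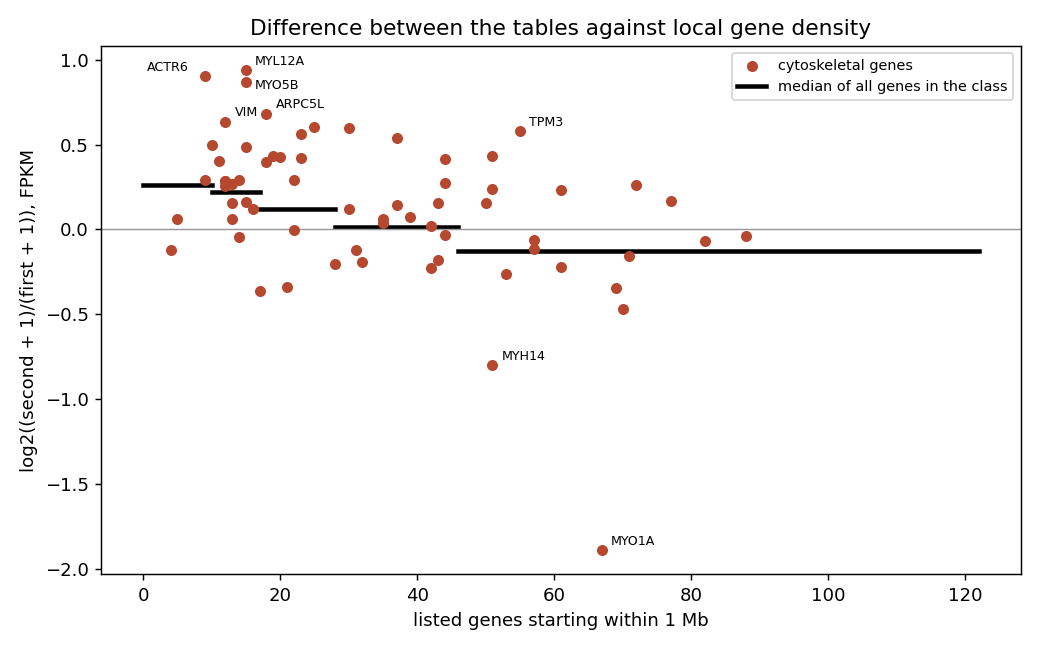
Log2 ratio of second over first table for each of the 66 cytoskeletal genes (points) against the number of listed genes that start within 1 Mb. Black bars are the medians of all genes in 5 classes of equal size, which run from 0.26 in the sparsest class to -0.13 in the densest.

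Partners of the same systems were taken as 8 lists of genes outside the family set. Of their 129 genes at a mean of at least 1 FPKM, 5 were large in the direction of the second table, or 3.88%, and 1 in that of the first, or 0.775%. The background was 2.4% and 1.82%, so these shares lie on either side of it by a few genes. Of 13 activators of the Arp2/3 complex, 11 were higher in the second table, beside 57.5% of all genes, and the median was 0.22. Among them the WAVE protein WASF2 was at 55.6 FPKM in the second table and 43.9 FPKM in the first, and cortactin (CTTN), which stabilises branches, at 39.5 FPKM in the second and 34.4 FPKM in the first. The formins and spire proteins, which nucleate unbranched filaments, had a median of 0.04 that turned to -0.02 with centring. INF2 was the most abundant, at 118.5 FPKM in the second table and 120.9 FPKM in the first, followed by DIAPH1 at 53.6 FPKM in the second and 46.6 FPKM in the first. FMNL2 was large, at 2.05 FPKM in the second table and 0.45 FPKM in the first.

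The lists that follow are to be read beside all genes, of which 57.5% were higher in the second table, with a median of 0.09. Actin capping, severing and monomer-binding genes divided into 14 higher and 11 lower, with a median of 0.06. Thymosin beta 4 (TMSB4X), which sequesters actin monomers, was at 319.8 FPKM in the second table and 152.0 FPKM in the first, a log2 ratio of 1.07. The related TMSB10 was at 397.4 FPKM in the second table and 369.5 FPKM in the first. Of 26 bundling, adhesion and stress fibre genes, 20 were higher and 6 lower, and the median was 0.23, beside 57.5% and 0.09 for all genes. Their most abundant members were TAGLN2, at 579.9 FPKM in the second table and 531.5 FPKM in the first, and the bundler fascin (FSCN1), at 263.9 FPKM in the second and 300.3 FPKM in the first. Of the 3 genes of the SRF list above the filter, all were higher and MKL2 was large, with a log2 ratio of 1.10.

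Genes for tubulin folding, gamma-tubulin complexes and tubulin modification divided into 16 higher and 8 lower, and the median was 0.16. Of all genes 57.5% were higher, with a median of 0.09. The tubulin tyrosine ligase family member TTLL12 was at 49.2 FPKM in the second table and 61.8 FPKM in the first, and MZT2B, a subunit of gamma-tubulin ring complexes, at 39.8 FPKM in the second and 56.4 FPKM in the first. Delta-tubulin (TUBD1) was large, at 4.21 FPKM in the second table and 0.73 FPKM in the first, as was SVBP, the partner of the tubulin detyrosinases, at 2.08 FPKM in the second and 0.41 FPKM in the first. Of 19 microtubule-associated genes, 13 were higher and 6 lower, and the median was 0.16, beside the same values for all genes. The dynein heavy chain DYNC1H1 was at 78.7 FPKM in the second table and 87.0 FPKM in the first, and stathmin (STMN1), which binds tubulin dimers, at 90.6 FPKM in the second and 66.8 FPKM in the first. FIGN, a microtubule-severing enzyme, was lower by more than 2-fold, at 0.64 FPKM in the second table and 2.36 FPKM in the first.

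**Figure D5:**
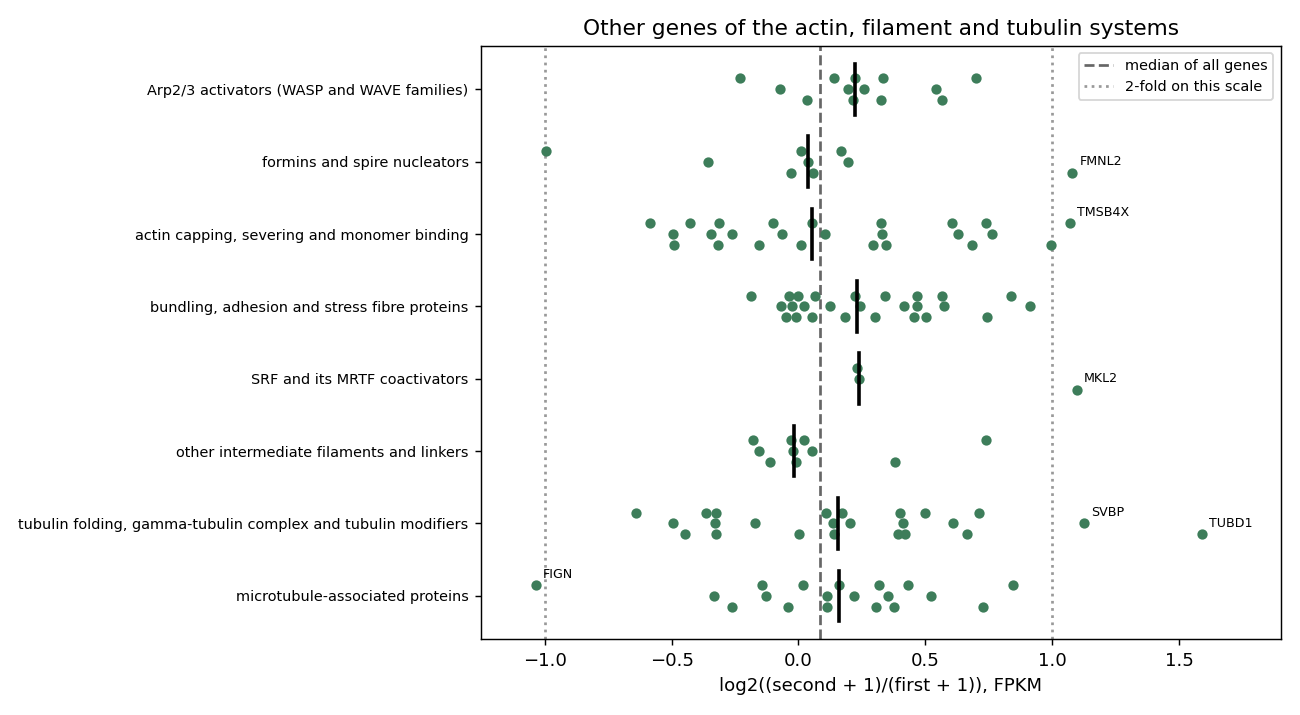
Log2 ratio of second over first table for genes of 8 lists with a mean of at least 1 FPKM. Points are genes, black bars list medians, the dashed line the median of all genes (0.09) and the dotted lines 2-fold; TUBD1, SVBP, MKL2, FMNL2 and TMSB4X lie beyond 2-fold on the side of the second table, and FIGN on that of the first.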

How the data were processed

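The authors deposited 2 tables of FPKM per gene, each with an identifier, a name and a locus, per the file headers. Per the submitters' processing notes, the build was hg38 and the tools were BWA 0.7.13, MACS 1.4.2 and cutadapt 1.12. The sources used here do not give the tool behind the FPKM values or say whether libraries were pooled. A few abundant RNAs can move every other FPKM value, since each is scaled to its library's total. No column names a sample, so the tables were tied to none, and no test or interval was possible.

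For genes in both tables the log2 ratio of second over first was computed with a pseudocount of 1 FPKM, at a mean of at least 1 FPKM. Locus starts were raised by 1, after which 1824 of 7877 genes compared, each alone at its locus, matched the RefSeq start, against 148 without it. Identifiers that share a locus string can share fragments, and 45 of the 83 members do so, including members whose partner is not named here. RefSeq symbols matched all 83. The members, lists and the rule for named genes (all members, then list genes that are large or among the 2 most abundant) were chosen with earlier results of these data known. The design allowed for counts or replicates, which the tables did not hold. The values of 1 member and of 1 further gene list are not reported here. The arithmetic of the ratio and the counts was checked on simulated data without noise, with known changes set only in genes at 10 FPKM or more. That check does not bear on low genes. Python 3.11.15, pandas 2.3.3, numpy 2.4.6, scipy 1.17.1 and matplotlib 3.10.9 were used.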

Additional observations from a re-analysis of the deposited data

How the results depend on the processing

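No paired analysis was possible because neither table has columns for replicates, and leaving out replicates or a count test was not run for the same reason. With no spread to compare, a median that moved by more than 0.1 (log2) or a count that moved by more than 1.5 times is given. With a pseudocount of 0.1 FPKM, which enlarges every ratio by construction, the counts of large differences became 1 higher (ACTR6) and 2 lower (MYO1A and MYH14). The count of large lower genes became 0 when the filter was raised to 10 FPKM and 0 among members sharing no locus, since MYO1A left the set. The members' median did not move by more than 0.1 under any of the 5 alternatives. At a mean of at least 10 FPKM the medians became 0.42 for the Arp2/3 complex, -0.10 for the other actin-related proteins, 0.29 for the myosin heavy chains, 0.23 for the light chains and 0.17 for the beta-tubulins. With no filter the beta-tubulin median became 0.17. Among members sharing no locus the medians became 0.43 for cofilins and profilins, 0.50 for the Arp2/3 complex, 0.072 for the tropomyosins, 0.48 for the light chains and 0.42 for the beta-tubulins. Fewer genes enter under these filters by construction, down to 1 for the heavy chains at 10 FPKM and, where no locus is shared, to 1 each for cofilins and profilins, light chains and beta-tubulins. Shares within a family do not depend on scaling between the tables. Depth is unknown, so its effect on low members was not measured, including MYO1A and ACTR6, with means of 3.35 and 4.15 FPKM.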
